A study of Mus musculus with 3 samples.

Results

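MicroRNA genes are listed in this RNA-seq data set beside protein-coding genes, and 97 named microRNA loci had reads in cells sorted from mouse lung. They were taken from a table of 48709 genes by rule, as the genes annotated as microRNA, with a symbol starting with Mir, and with at least 10 counts summed over 3 libraries. Of 2202 genes annotated as microRNA, 1178 had such a symbol. Of these, 828 had no count in any library, 253 had 1 to 9 counts and 97 had 10 or more. The members were chosen by their summed counts, so levels are given as a description. How each locus divided its counts between the libraries, where it lies and what its sequence is were not used by the rule.

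The 3 libraries form 1 group, wild type (WT) by their titles, with lung smooth muscle as the labelled cell type. The mice carried creERT2, a Cre recombinase that tamoxifen switches on, driven by smooth muscle actin, together with tdTomato, a red fluorescent protein. Tamoxifen went into the peritoneum at 75 mg/kg a day for 10 days, starting at 8 weeks of age. Lung cells were isolated and sorted after another 2 months. No mouse without tamoxifen or without the transgenes was analysed here, and nothing in the labels says that the 3 libraries came from separate animals. The p-values below therefore measure the spread between these libraries, which may be technical.

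A microRNA is cut from a longer transcript. In the nucleus, Drosha and its partner Dgcr8 release a hairpin from the primary transcript, which is often an intron or an exon of a host gene, and in the cytoplasm Dicer1 trims the hairpin to a mature RNA that an Argonaute protein holds. The mature RNA finds its targets mostly through its seed, bases 2 to 8 from its 5′ end. A locus in this table is the hairpin region, of 56 to 139 bases and a median of 86. A library of total RNA fragments reads primary transcripts and host introns at such a locus, so a count there need not come from mature microRNA.

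RefSeq, on GRCm38.p6, gave a mature sequence for 72 of the 97 loci. Among these, 112 mature sequences carried 108 different seeds. A pair of members, Mir5107 and Mir6979, was not looked up, and the repeated Mir467a and Mir669a loci described further on were not matched. The other members without a mature sequence were Mir684-1, Mir684-2, Mir6395, Mir1957a, Mir709, Mir5099, Mir467c, Mir467d and Mir467e. Of the 4 seeds that belonged to more than 1 locus, 3 joined relatives with different mature sequences. They are shown with the seed in capitals because they are the family links among the loci with a sequence.
let-7a-5p, from Mirlet7a-1 (chr13:48538239-48538260, minus strand): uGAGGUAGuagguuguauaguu
let-7g-5p, from Mirlet7g (chr9:106178846-106178867, plus strand): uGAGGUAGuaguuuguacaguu
miR-27a-3p, from Mir27a (chr8:84208727-84208747, plus strand): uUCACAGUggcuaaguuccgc
miR-27b-3p, from Mir27b (chr13:63300760-63300780, plus strand): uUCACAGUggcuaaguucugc
miR-132-3p, from Mir132 (chr11:75173723-75173744, plus strand): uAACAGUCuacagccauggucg
miR-212-3p, from Mir212 (chr11:75173443-75173464, plus strand): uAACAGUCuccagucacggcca

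The next sequences belong to 4 loci that the results below turn on, the 3 with the most counts and Mir142b, the highest of the well-known loci, again with the seed in capitals. miR-692 is produced from both Mir692-1 and Mir692-2, and is printed from Mir692-2.
miR-6236, from Mir6236 (chr9:110281353-110281371, plus strand): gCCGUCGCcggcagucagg
miR-703, from Mir703 (chr5:98475616-98475636, minus strand): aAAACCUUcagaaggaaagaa
miR-692, from Mir692-2 (chr4:125504805-125504825, plus strand): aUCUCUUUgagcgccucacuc
miR-142b, from Mir142b (chr11:87756906-87756925, minus strand): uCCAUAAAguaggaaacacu

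Both Mir692 hairpins are copies of a ferritin light chain sequence. Below, capitals mark the bases that lie in 25-base words also found in transcripts of Ftl1-ps1, a ferritin light chain copy that the table annotates as protein-coding. All 109 bases of Mir692-2 and 86 of the 109 bases of Mir692-1 are in capitals.
Mir692-2 (chr4:125504749-125504857, plus strand): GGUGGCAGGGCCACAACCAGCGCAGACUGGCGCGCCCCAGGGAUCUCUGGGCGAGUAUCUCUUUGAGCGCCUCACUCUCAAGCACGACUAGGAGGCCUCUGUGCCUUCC
Mir692-1 (chr17:6895229-6895337, minus strand): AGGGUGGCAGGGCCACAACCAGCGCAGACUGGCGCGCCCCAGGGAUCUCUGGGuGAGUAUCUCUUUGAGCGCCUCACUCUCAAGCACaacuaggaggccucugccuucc

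Library totals were 18896263, 18355813 and 16877297 counts in WT libraries 1, 2 and 3, so 3 counts, up to which a count of 0 limits a level, were 0.159, 0.163 and 0.178 counts per 1000000 counts of the library (CPM). Such floors, and the intervals of shares, cover counting error alone. The smooth muscle label was not borne out by its defining markers. All 6 of them had counts and summed to 113 to 157 CPM, with smooth muscle actin, Acta2, at 211, 313 and 191 counts and calponin, Cnn1, at 0, 7 and 5. The 7 markers of T, B and NK cells summed to 2183 to 2897 CPM, none of them at 0. Most of each sum came from Ptprc, a marker of leukocytes as a whole, at 1360, 1430 and 1649 CPM in libraries 1, 2 and 3. Per kilobase of exon, the smooth muscle marker Tagln had 9.49 CPM, the leukocyte marker Ptprc 80.8 CPM, and the epithelial markers Scgb1a1, Sftpc and Epcam 16432, 607 and 2.53 CPM. The part that these other cells play in the counts of any microRNA locus was not tested. In bulk RNA, fewer cells of a type and less RNA per cell cannot be told apart.

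The members together took 0.366%, 0.269% and 0.246% of all counts in libraries 1, 2 and 3, a mean of 0.293% ± 0.0637. Each 95% Wilson interval was narrow, for instance 0.363% to 0.369% in library 1. A single locus held nearly all of this. Mir6236, an unhosted 123-base locus on chromosome 9, had 67398, 47709 and 39791 counts, which was 97.5%, 96.6% and 96.0% of the members' counts. Without it the other 96 loci took 0.00913%, 0.00902% and 0.00986%, a far more even share than with it. Mir6236 was highest in library 1 and lowest in library 3, at 3567, 2599 and 2358 CPM. Its level per length, 23099 CPM per kilobase, stood among those of ribosomal RNAs. The 18S ribosomal RNA gene Rn18s-rs5 had 5727 CPM per kilobase and the mitochondrial ribosomal RNA mt-Rnr1 had 45737 CPM per kilobase. Counts of Rn18s-rs5 were 313459, 260644 and 195405, highest in library 1 and lowest in library 3 like those of Mir6236, whereas mt-Rnr1 was highest in library 3, at 818950, 674162 and 860208 counts. Mir6236 had 0.215, 0.183 and 0.204 counts for each count of Rn18s-rs5. Other ratios varied more. Mir6236 had 1.62, 1.41 and 1.93 counts for each count of the ribosomal RNA gene n-R5-8s1, and 0.0823, 0.0708 and 0.0463 for mt-Rnr1. For the lincRNA gene Gm26917, which was highest in library 2, the ratios were 0.469, 0.132 and 0.573. No 25-base word of Mir6236 occurred in a GENCODE transcript of another gene, but no full ribosomal RNA precursor or genome sequence was searched. That search thus could not tell whether the locus shares sequence with such a precursor. Whether the reads of Mir6236 came from ribosomal RNA was not tested.

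**Figure D1:**
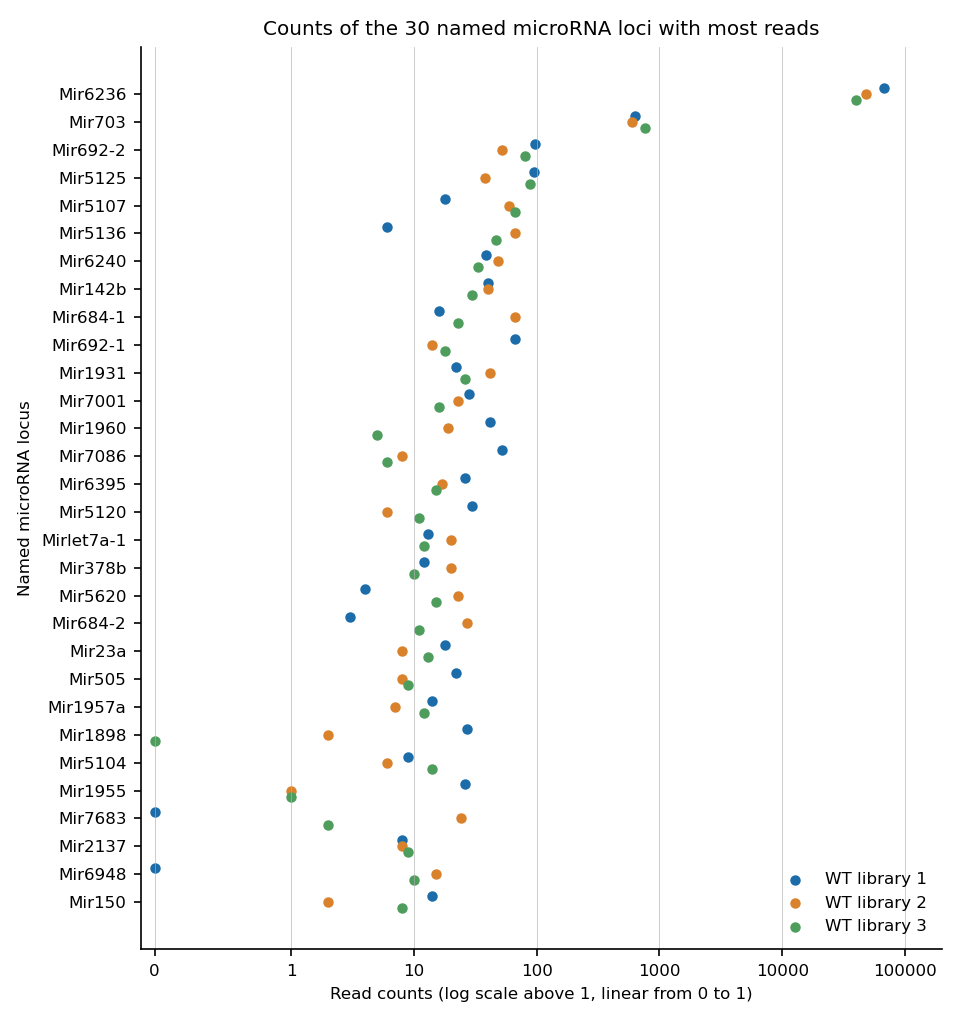
Read counts (log axis above 1) of the 30 named microRNA loci with the most reads, 1 point per WT library. Mir6236 lies at 39791 to 67398 counts and Mir703 at 597 to 758, while the others lie below 100 in each library and some reach 0.

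Most other members were low. The median of the summed counts was 17, 82 of the 97 loci had under 50 counts, and 9 had 100 or more. The median level over the members, as log2(CPM + 1), was 0.43 ± 0.05 and that of all 23317 genes with at least 10 counts was 2.52 ± 0.06, neither corrected for length. Per kilobase, the median log2 level was 2.42 ± 0.08 for the members, per length of the locus, and 1.58 ± 0.05 for the 23231 of those genes with an exon length. A threshold of 10 counts on loci of under 140 bases sets a high lowest level per kilobase, so this order follows in part from how members were chosen.

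After Mir6236, several of the highest loci shared some or all of their sequence with abundant mRNAs. Mir703 had 636, 597 and 758 counts, the most of any member but Mir6236, and was highest in library 3. It shared no word of 50 bases with another gene. Of its 85 words of 25 bases, 43 occur in Eef1a1, the translation elongation factor, which had 58956, 57312 and 54696 counts. The locus therefore held 1.08%, 1.04% and 1.39% as many counts as Eef1a1. Mir692-2 had 97, 52 and 80 counts and Mir692-1 had 66, 14 and 18. Mir692-2 was lowest in library 2 and Mir692-1 highest in library 1, while its counts in libraries 2 and 3 did not differ (chi-square test without library 1, adjusted p = 0.613). Ftl1-ps1 was lowest in library 2, at 5741, 4128 and 4806 counts, and so was Ftl1, the ferritin light chain gene that stores iron, at 3329, 2378 and 3069. Mir692-2 also spans an exon edge of the pseudogene Ftl2-ps. Mir684-1 shared 61 of 62 words with Sumo2, a small protein that is attached to other proteins, and Mir684-2 shared 55 of 62. Mir684-1 had 16, 66 and 23 counts and Mir684-2 had 3, 27 and 11, both highest in library 2. Sumo2 was highest there too but varied less, at 1211, 1292 and 1017 counts. In all, 30 of the 97 loci shared at least 1 word with a gene that does not overlap them, and 20 shared at least 50% of their words, so their counts are uncertain. Whether the reads at these loci came from the other genes was not tested.

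Well-known microRNA loci were mostly without reads, as were named loci as a whole. Of 124 loci on 12 lists of cell types and families, 12 were members and 93 had no count. Of all 1178 named loci, 97 were members and 828 had no count, which are similar shares. The highest of the 12 was Mir142b, with 40, 40 and 30 counts, with no library standing apart. It lies on the strand opposite to Mir142, whose mature products are used as marks of blood cells, and contains that 64-base locus whole. Mir142 itself had no count in any library, and the host transcript Mir142hg, on the strand of Mir142, had 110, 164 and 162 counts. Per kilobase, Mir142b had 17.6 CPM and the exons of Mir142hg had 30.2 CPM. Strand assignment of the reads is not stated in the sources, so Mir142b and Mir142 cannot be told apart. Their hairpins are shown with the mature arms in capitals.
Mir142b (chr11:87756841-87756955, minus strand): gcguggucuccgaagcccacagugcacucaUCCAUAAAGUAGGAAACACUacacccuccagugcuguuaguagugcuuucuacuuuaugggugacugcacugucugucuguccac
Mir142 (chr11:87756864-87756927, plus strand): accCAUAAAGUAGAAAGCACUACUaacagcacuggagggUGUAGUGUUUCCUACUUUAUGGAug

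Mir150, the locus of a microRNA of mature B and T cells, had 14, 2 and 8 counts, the fewest in library 2. It did not differ without library 1 (chi-square test, adjusted p = 0.122) or without library 2 (adjusted p = 0.281), so that order is uncertain. Other blood cell loci were nearly or wholly without reads. Mir155 and Mir223, of activated lymphocytes and of granulocytes, had no count, and each lies inside an exon of another gene. Mir342 had 0, 0 and 5 counts, although its host Evl had 7410 summed counts.

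The loci of smooth muscle were below the threshold. Of 16 loci on the vascular smooth muscle list, 3 had a count and none reached 10. Among all named loci 29.7% had a count and 8.23% reached 10, so few such loci would be looked for in a list of this size. Mir143 and Mir145a, the pair most closely tied to smooth muscle identity, had no count in any library, so a level of up to 0.178 CPM in library 3 could not be seen. Carmn, known elsewhere as their host transcript although both loci lie outside other genes in the annotation used here, had 11, 44 and 37 counts. Mir21a had no count and lies inside an exon of Vmp1, which had 1768 summed counts. Mir125b-2 had 0, 7 and 0 counts, Mir10a had 0, 0 and 4, and Mir26a-1 had 0, 0 and 1. All 11 striated muscle loci and all 13 epithelial loci, among them the Mir200 family, had no count. The same held for all 7 loci of the neuron and liver list. Of the 6 endothelial loci, Mir503 had 2 counts in library 3 and the others had none. Among these, Mir126a lies inside an exon of Egfl7, which had 843, 348 and 476 counts.

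The fibroblast list gave a pair of members and the let-7 list another pair. Mir199a-1, of mesenchymal cells, had 10, 7 and 4 counts on the strand opposite to its surrounding gene Dnm2. Mir29a, whose product is known to repress collagen mRNAs, had 1, 9 and 2 counts, the most in library 2. Without library 1 it did not differ between libraries 2 and 3 (chi-square test, adjusted p = 0.0805). Of 12 let-7 family loci, 7 had a count and 2 were members. Mirlet7a-1 had 13, 20 and 12 counts and Mirlet7g had 0, 7 and 3.

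The clusters of Mir23, Mir27 and Mir24 had the largest share of members, 4 of 7 loci. Mir23a had 18, 8 and 13 counts and Mir27a, 79 bases away, had 4, 7 and 8. Mir27b had 3, 11 and 8 counts and Mir3074-1 had 3, 2 and 12, with no shared order between the libraries. Mir3074-1 overlaps all 68 bases of Mir24-1 on the other strand, and Mir24-1 had no count. Mir16-1, in Dleu2, had 11, 7 and 2 counts, and Mir30c-1, in the transcription factor gene Nfyc, had 10, 4 and 0. Of 15 loci in clusters of the Mir17 type, Mir106b had 4 counts and the others had none. The host transcript Mir17hg had 98, 163 and 213 counts. Mir132 and Mir212, a pair 203 bases apart known for induction by CREB, had 12, 2 and 1 and 12, 2 and 2 counts, both highest in library 1. Their same-strand host, 1700016P03Rik, had 3, 25 and 17 counts and was lowest in that library.

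**Figure D2:**
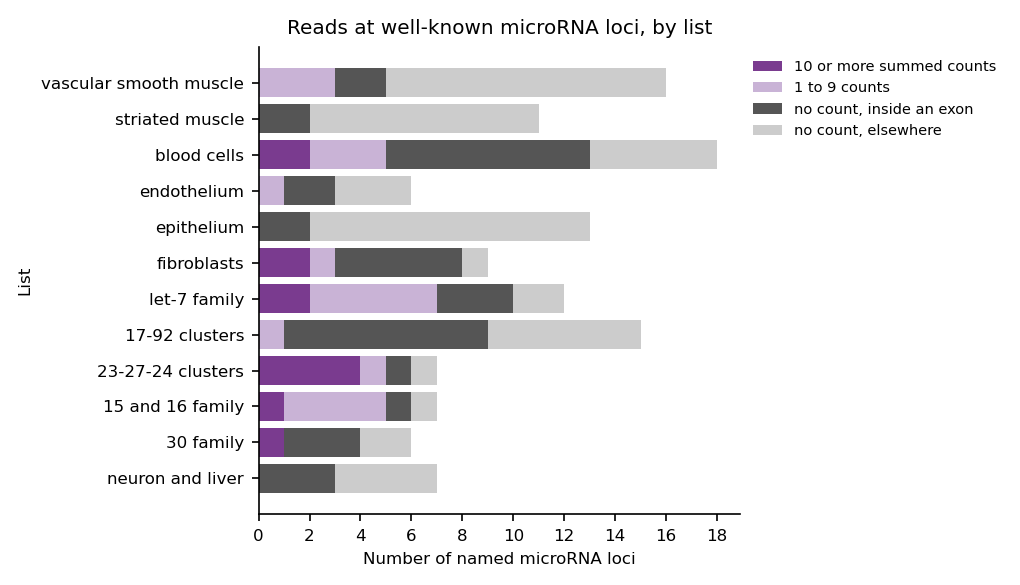
Number of named microRNA loci on each of 12 lists, split by summed counts and, for loci with no count, by whether they lie inside an exon of another gene. The Mir23, Mir27 and Mir24 clusters have 4 members of 7 loci. The smooth muscle, striated muscle, endothelial, epithelial, 17-92 cluster, and neuron and liver lists have none.

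Named loci with reads lay mostly in introns, and those inside exons had almost none. Of the 1178 named loci, 235 lie wholly inside an exon of another gene, other microRNA genes included, and 4 of these, or 1.70%, had a count. Of 530 loci in an intron on the same strand, 231 (43.6%) had a count and 64 were members. Introns on the opposite strand gave 30 of 70 loci with a count (42.9%) and 9 members. Loci across an exon edge gave 32 of 111 (28.8%) and 9 members, and loci outside other genes gave 53 of 232 (22.8%) and 12 members. The 4 exonic loci with a count were Mirlet7a-1, Mir27b, Mir3074-1 and Mir6981, of which the first 3 were members. Exons on the same strand held 156 of the exonic loci, with 3 at a count above 0, and exons on the opposite strand held 64, with 1. Another 15 lie in exons of both strands and had none. Among the 124 listed loci, 42 lie inside an exon and 39 of these had no count, so a 0 at a well-known locus often coincided with an exon. The counting of reads that overlap more than 1 gene is not described in the sources, and the part of that setting in these zeros was not tested.

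For intronic loci, having reads went with the counts of the host. Among loci in same-strand introns, 2 of 34 had a count where the host had under 10 counts, 15 of 82 where it had 10 to under 100, and 83 of 200 where it had 100 to under 1000. With hosts of 1000 to under 10000 counts, 113 of 186 loci had a count, and with hosts of 10000 or more, 18 of 28. Members numbered 0, 3, 22, 34 and 5 in these classes. Of the 22, 17 lie in the same gene, Sfmbt2, and 12 of these have the equal counts of identical loci given further on. Sfmbt2 holds 71 named loci in all, 33 of them with a count, so its class leans on a single gene. The hosts of the 64 intronic members had a median of 2005 summed counts, and those of the 466 other loci in same-strand introns a median of 505.5. No test was made across loci, which share hosts and libraries.

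**Figure D3:**
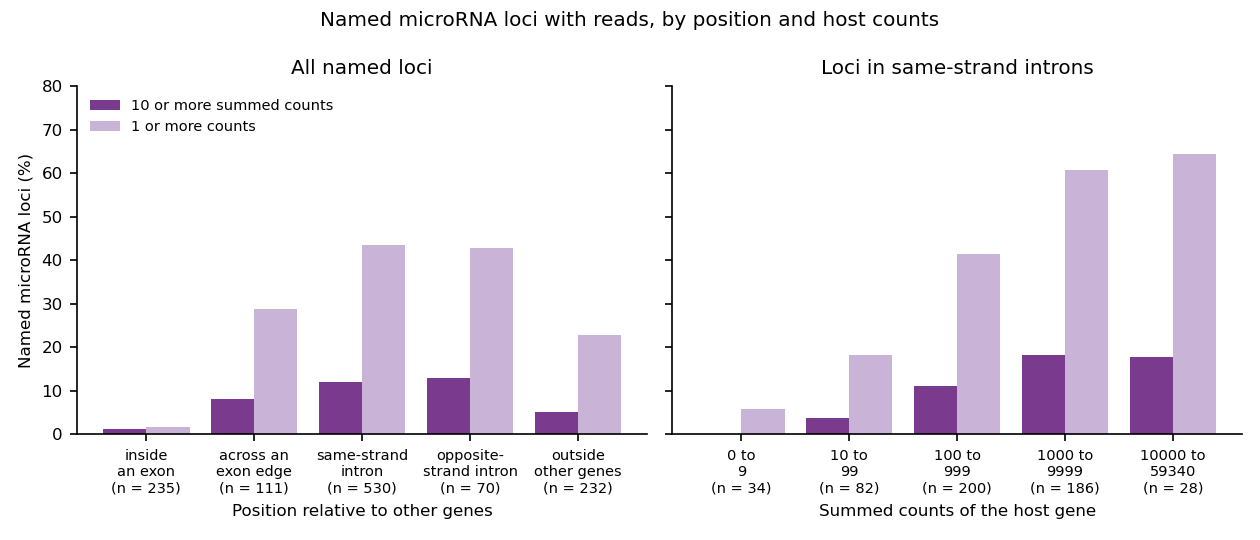
Percentage of named microRNA loci with 10 or more summed counts (dark) or with any count (light), by position relative to other genes on the left and, for same-strand introns, by the summed counts of the host on the right. Loci inside exons stand lowest, at 1.70% with a count, and the share with a count is 5.88% for the lowest hosts and 64.3% for the highest.

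In all, 75 of the 97 members (77.3%) lie inside another gene on the same strand, in 58 different genes, and so do 725 of the 1081 named loci below the threshold (67.1%). For 70 members such a gene is protein-coding. Hosts included immune genes. Mir5125, the highest member in a same-strand intron, had 95, 38 and 88 counts in Srrm2, a splicing factor gene with 18545, 18661 and 22134 counts. Mir5120 had 30, 6 and 11 counts in Pax5, the B cell transcription factor, which had 2925, 4356 and 5218. Library 1 was thus the highest for the locus and the lowest for its host. Mir7001 had 28, 23 and 16 counts in the tetraspanin gene Cd82, with 2004, 1526 and 1388 counts, and its own counts did not differ between libraries (adjusted p = 0.226). Per kilobase these members had 51.9, 11.0 and 15.5 CPM, and the exons of their hosts had 85.9, 26.4 and 30.1 CPM. Mir5107, across an exon edge of the invariant chain gene Cd74, had 18, 59 and 66 counts, while Cd74 had 14600, 19463 and 20706. Mir7-1 in Hnrnpk, the gene of an RNA-binding protein, had 9, 5 and 4 counts, and Mir28a in Lpp had 9, 1 and 14. Mir326 in the arrestin gene Arrb1 had 13, 9 and 2 counts, and Mir1954 in the endoglin gene Eng had 7, 0 and 3. With so few counts, the order of the libraries at these last 4 loci is uncertain.

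The largest group at 1 gene lies in Sfmbt2, a Polycomb gene on chromosome 2 whose intron carries a rodent cluster of repeated microRNA genes. Of 71 named loci inside it, 33 had a count and 17 were members, 8 of them Mir467 and 9 Mir669 loci. Sfmbt2 had 76, 139 and 78 counts, while its 17 member loci summed to 61, 109 and 67. These sums take the equal counts of identical loci, given next, several times. They are therefore not a level to set beside that of Sfmbt2. Mir669a-1 had 0, 12 and 3 counts, and 7 other Mir669a loci each had exactly 0, 10 and 3. Mir467a-3, Mir467a-6 and Mir467a-10 each had 11, 1 and 5 counts, and Mir467a-5 and Mir467a-8 each had 6, 2 and 8. The Mir669 members were thus highest in library 2 and at 0 in library 1, whereas the Mir467a members were lowest in library 2. Loci with equal counts had equal sequences over their whole length, of 87 bases for Mir669a and 83 for Mir467a. Mir467a-3 and Mir467a-5 differ at 1 base. Mir669a-5 has the same sequence as Mir669a-4 but had 0, 10 and 1 counts. These 12 equal loci repeat each other's sequence and counts, so they are not 12 independent measurements. With each set of equal counts taken once the members have 88 different count patterns. The cluster also makes up 17 of the 30 members within 10 kb of another named locus on the same strand.

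**Figure D4:**
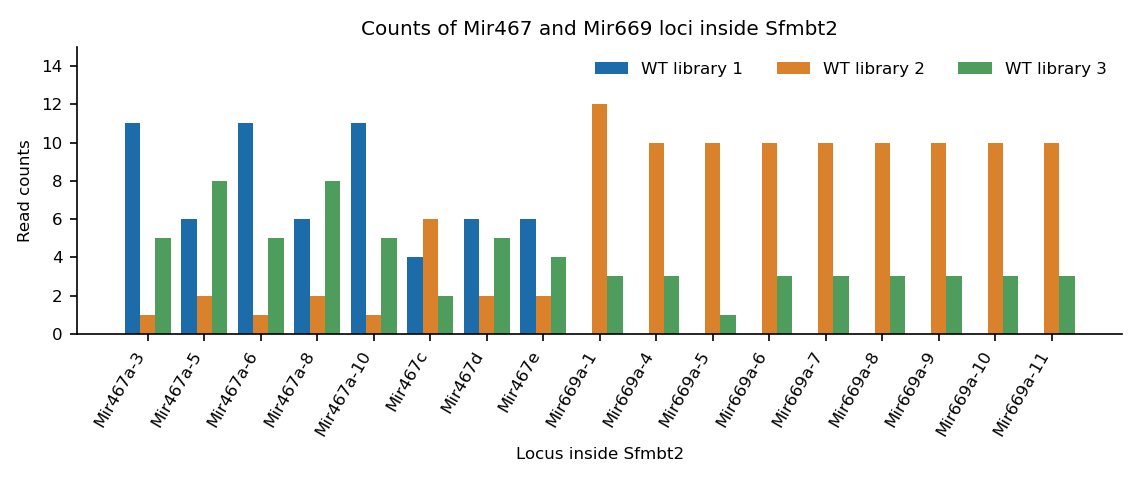
Read counts of the 17 Mir467 and Mir669 member loci inside Sfmbt2, with 1 bar per WT library. Of the 9 Mir669a loci, 7 repeat the pattern 0, 10 and 3, and Mir467a-3, Mir467a-6 and Mir467a-10 repeat 11, 1 and 5.

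A chi-square test asked of each gene whether its counts were split between the libraries in proportion to their TMM-scaled sizes. After Benjamini-Hochberg adjustment over 23317 genes, 57 of the 97 members (58.8%) differed between the libraries beyond counting error, beside a background of 70.0% of all tested genes. With each set of equal counts taken once 49 of 88 (55.7%) differed, and of members with no shared word 36 of 67 (53.7%). Of members with a count in each of the 3 libraries, 27 of 62 (43.5%) differed. That subset leaves out loci with a 0, which is itself part of the split tested. The members' share was thus not above the background. A test of this kind calls more genes at higher counts, so both were set side by side within classes of summed counts. At 10 to 19 counts, a class that holds the equal loci of Sfmbt2, 58.5% of members and 58.5% of genes differed, at 20 to 49 counts 51.7% and 63.2%, and from 50 counts to under 300 counts 69.2% and 65.4%. Both members with 300 or more counts, Mir6236 and Mir703, differed, as did 77.5% of genes, although Mir703 did not differ without library 3 (adjusted p = 0.312). Without library 1, 2 or 3 the number of members called was 13, 26 and 41, from 69, 64 and 74 testable members, and the background was 38.2%, 53.4% and 56.8%.

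Single libraries held most of the counts of some loci. Of the 97 members, 40 were highest in library 1, 35 in library 2 and 22 in library 3, while 34 were at 0 in 1 library. These numbers count identical loci separately, among them 7 Mir669a loci that each had 0, 10 and 3 counts. Numbers of this kind over all genes are not set beside them, so they only describe the members. Mir7237, in Banp, was at 0 in 2 libraries, with all its 22 counts in library 1. The 10 members with the widest range between libraries spanned 1.11 to 1.82 on the scale of log2(CPM + 1), against 0.16 to 0.67 for the 9 genes that surround them. These loci were picked for a wide range and their hosts were not, so the gap between them is a description. Which loci come first depends on the pseudocount. With 0.1 the ranges were 3.93 for Mir1898 and 1.93 for Mir5107, and Mir5101 (2.81) and Mir7087 (2.79) passed Mir1960 (2.55). Mir1898, in the RNA-binding protein gene Zfr, had 27, 2 and 0 counts (chi-square test, adjusted p = 4.08e-10). Zfr itself had 1978, 1888 and 1937 counts, which did not differ beyond counting error (adjusted p = 0.326). Mir7683, in the lymphocyte receptor gene Slamf7, had 0, 24 and 2 counts (adjusted p = 7.75e-09), while Slamf7 had 743, 729 and 787 (adjusted p = 0.366). The first locus was thus concentrated in library 1 and the second in library 2, in genes with nearly even counts. Without library 1 Mir1898, and without library 2 Mir7683, had under 10 counts left and could not be tested.

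Mir7086 had 52, 8 and 6 counts inside Il10ra, the interleukin-10 receptor gene, which had 2126, 1808 and 2090. Mir1955 had 26, 1 and 1 inside Phf21a, which had 1594, 1574 and 1826. Mir1960 had 42, 19 and 5 inside Hadhb, a gene of fatty acid oxidation, which had 619, 632 and 659. Library 1 thus held 78.8%, 92.9% and 63.6% of the counts of the 3 loci, and 35.3%, 31.9% and 32.4% of those of their hosts. Mir5136 went the other way, with 6, 67 and 47 counts on the strand opposite to Lbhd1, which had 43, 32 and 47. Without library 1, Mir7086 and Mir5136 did not differ between the other libraries (chi-square test, adjusted p = 0.703 and 0.124), and Mir1955 and Mir7237 had under 10 counts left. Of the 10 widest loci, 6 were highest in library 1, 3 in library 2 and 1 in library 3. The test covers counting error, and whether several counts at a locus came from copies of 1 molecule was not tested.

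**Figure D5:**
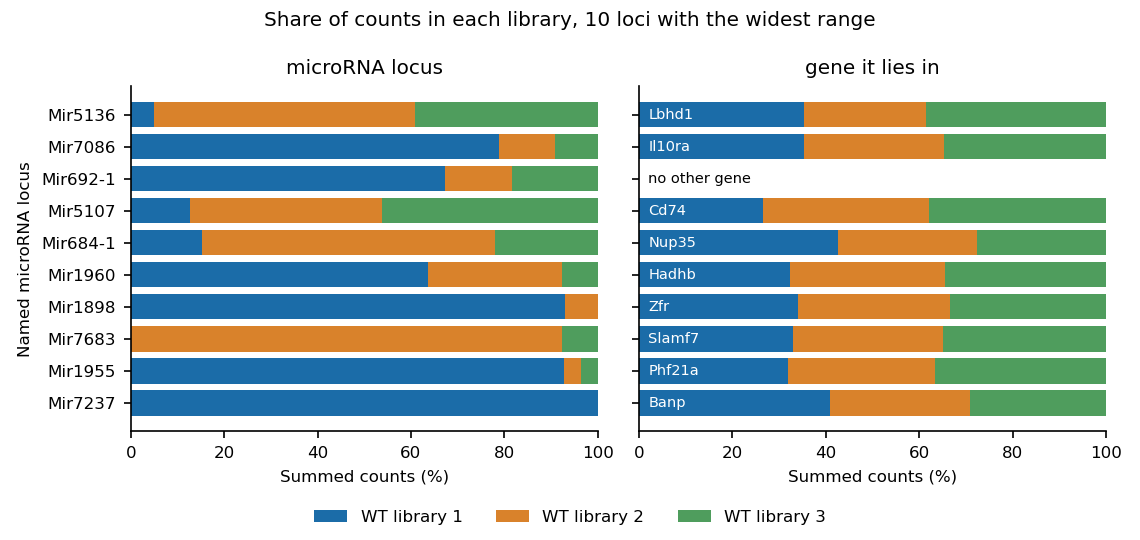
Percentage of summed counts found in each WT library for the 10 member loci with the widest range (left) and for the gene each lies in (right). Mir7237 has 100% in library 1 and Mir7683 has 92.3% in library 2, while the surrounding genes are nearer to even.

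The other 40 members did not pass the test, which does not show that they were even. Mir6240, with 39, 48 and 33 counts, did not differ between libraries beyond counting error (adjusted p = 0.278), nor did Mir142b (adjusted p = 0.434) or Mir2137 with 8, 8 and 9 counts (adjusted p = 0.967). Mir1931, in the kinase gene Cdk17, had 22, 42 and 26 counts and differed (adjusted p = 0.0364). The remaining loci among the 20 highest were Mir6395 with 26, 17 and 15 counts, Mir378b with 12, 20 and 10, and Mir5620 with 4, 23 and 15. Of these 3, Mir5620 differed (adjusted p = 0.00307), and it shared 7 of its 32 words with Mid1. Without library 1 neither Mir5620 (adjusted p = 0.311) nor Mir1931 (adjusted p = 0.111) differed, and Mir1931 did not without library 2 (adjusted p = 0.64).

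Just inside the threshold, at 10 counts, were Mir1900, Mir194-2, Mir1954, Mir7052 and Mirlet7g, of which 4 were at 0 in library 1. Just outside it, at 9 counts, were 8 loci, among them Mir98 of the let-7 family with 0, 0 and 9 counts and Mir669k with 9, 0 and 0. A few counts in 1 library thus decided membership at this edge.

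Genes of the microRNA pathway had counts in each library, with few exceptions. Of 26 genes on the fixed list, 25 had counts and 21 had a mean CPM of at least 10. The nuclear step was represented by Drosha at 37.9 ± 3.44 CPM and Dgcr8 at 30.6 ± 2.32 CPM, and the exporter Xpo5 stood at 28.1 ± 2.37 CPM. Dicer1 had 80.8 ± 11.8 CPM. Among the Argonautes, per kilobase of exon, Ago1 had 7.62 CPM, Ago3 2.71 and Ago4 1.10. Ago2, the Argonaute that can cut its targets, had 2866, 3163 and 3025 counts. The scaffold genes Tnrc6a and Tnrc6b, whose proteins carry out silencing, had 14.7 and 9.57 CPM per kilobase. Lin28a, which blocks let-7 maturation in embryonic cells, had no count, and its relative Lin28b had 0, 1 and 5. The uridylating enzymes Zcchc11 and Zcchc6, now named Tut4 and Tut7, had 235 ± 46.6 and 146 ± 28.7 CPM. Of 23 genes with enough counts to test, 15 differed between the libraries beyond counting error, where 70.0% of all tested genes did, among them Dicer1 with 1314, 1463 and 1572 counts (adjusted p = 5.92e-05). Drosha, with 701, 641 and 703 counts, did not (adjusted p = 0.187).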

How the data were processed

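The authors deposited a table of raw, whole-number read counts per gene. The tools named are STAR 2.6.1d, Trimmomatic 0.38, FastQC, featureCounts 1.6.3 (Subread) and DESeq2 1.18.1, per the submitters' processing notes. Their order and settings, including strand, overlaps and reads with several matches, are not stated in the sources, and each can change counts at short loci. Per the labels, total RNA came from the miRNeasy micro kit, DNase included, and libraries were made with the SMARTer Stranded Total RNA kit (HI Mammalian). The sources do not state the sort gate. Columns named CTRL were assigned to WT libraries by number. The notes list human builds, whereas the gene IDs are of mouse. Of 48349 IDs shared with GENCODE M21 (GRCm38), 42754 had identical coordinates, including all 1178 named microRNA loci.

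CPM are counts per 1000000 library counts, and log2 values use a pseudocount of 1. TMM factors came from edgeR 4.0.16 in R 4.3.3 and DESeq2 1.42.0 gave the alternative size factors. The chi-square test was run with scipy 1.17.1 on genes with 10 or more counts, at an adjusted p threshold of 0.05. It was also tried on simulated data. Those held planted changes and counting error alone, so they could not show how it behaves under other spread between libraries. Positions used GENCODE exons of genes in the table. Shared sequence was any 25-base word of a locus found in a GENCODE transcript of a gene that does not overlap it. Host and list values were set side by side without a test, since 1 group gives no contrast. The members, lists and tests were chosen with earlier results of these data known. Loci were named by a rule: the 20 highest, every member on a list, the 10 with the widest range among those that differed, loci at the threshold, and their hosts. Not all are printed, and other members, among them Mir132, Mir212, Mir326, Mir28a, Mir7-1, Mir2137 and the Sfmbt2 loci, were named after their values were seen.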

Additional observations from a re-analysis of the deposited data

How the results depend on the processing

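Scaling by DESeq2 size factors, by library totals or by TMM factors without microRNA genes left 57 or 58 loci called, and an exact multinomial test, added after seeing the data, gave 60. A minimum of 50 counts left 11, from 15 testable loci, and leaving out 1 library gave 13 to 41. The share of library counts was 0.497% of nuclear protein-coding counts and 0.00934% without Mir6236, and 0.257% to 0.317% with 1 library left out. The median log2 level was -1.16 with a pseudocount of 0.1, where levels under 0.9 CPM have negative logs, 2.42 per kilobase of locus, and 0.414 to 0.460 with 1 library left out. Members numbered 44 at 20 counts, 165 at 5 counts, 62 with a count in each library and 64 to 74 with 1 library left out. With 50-base words, added after seeing the data, 19 loci shared sequence. Numbers inside a same-strand gene (70 to 85) and within a cluster (29 to 35) stayed within 1.5 times. No paired analysis was possible because the labels give 1 group. With a median of 17 counts per locus, differences at most loci were not measurable closely, and the causes of these moves were not tested.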

Other observations

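The libraries differed in how many named microRNA loci they reached, counting loci below the threshold as well. A count was present at 111, 180 and 269 of the 1178 loci in libraries 1, 2 and 3, and 19, 53 and 133 loci had counts in that library alone. The same order held over all genes of the table, with 24939, 26207 and 30433 genes having a count. Library 3 had the lowest total. Beside the named loci, 1024 further genes were annotated as microRNA, of which 83 had 10 or more counts. Genes annotated as microRNA took 15.1%, 12.9% and 8.36% of counts in libraries 1, 2 and 3, so the named members held a small part of that class.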
